A study of Mus musculus with 6 samples.

Results

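The HOX, MEIS and PBX loci described here are 9 genes of the homeobox network of blood stem cells: Hoxa5, Hoxa7, Hoxa9, Hoxa10, Hoxb3, Hoxb4, Hoxb5, Meis1 and Pbx3. Their chromatin was read from 31 of the 42632 accessible regions (peaks, each 700 bp wide) in the table. A peak belonged to a gene when that gene was the nearest RefSeq protein-coding gene (mm10) and the midpoint of the peak lay inside it or within 50 kb of it. No measured value entered this link of peaks to genes, but the 9 genes were chosen with earlier results of these data known. Of the 31 peaks, 8 were gene-end peaks, with a midpoint at most 1 kb from either end of the gene, and 23 were distal peaks, meaning all others. Meis1 held 15 peaks, Pbx3 held 5, Hoxb3 held 3, Hoxa9 and Hoxa10 held 2 each, and Hoxa5, Hoxa7, Hoxb4 and Hoxb5 held 1 each. The annotation gives gene starts and ends without exons, so 20 peaks inside genes were not divided into exonic and intronic ones.

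Accessibility was measured by bulk ATAC-seq, in which a transposase cuts open DNA and tags it for sequencing. The cells were long-term haematopoietic stem cells (LT-HSCs) of C57BL/6 mice, 10 to 16 weeks of age, taken from marrow and sorted as Lin- Sca1+ cKit+ CD34- Flt3-. Confined cells (3 libraries) spent 13 h in culture, attached to fibronectin-coated glass for 0.5 h, stayed 2 h below a coverslip on pillars 5 µm high, and were finally released with a dissociation reagent. Unconfined cells (3 libraries) were cultured for 16 h. The contrast therefore compares attachment, confinement and detachment together with culture alone, and these steps cannot be told apart. Each of 3 experimental batches supplied 1 confined and 1 unconfined library. The labels do not say whether each library came from a separate animal, so p-values measure the spread between these libraries.

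HOX proteins are homeodomain transcription factors encoded in clusters, and in blood stem and progenitor cells genes of the A and B clusters are active and are shut down as cells differentiate. PBX and MEIS proteins are homeodomain cofactors of the TALE class that bind DNA together with HOX proteins and sharpen their choice of sites. Meis1 is needed to keep adult stem cells quiescent, and Hoxa9 together with Meis1 or Pbx3 drives many leukaemias. Expression of Hoxb5 marks long-term stem cells in the mouse, and forced Hoxb4 expands them.

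Promoter windows of 4 genes are shown to place member peaks relative to start sites. The gene-end class rests on distance to either end of the gene, so a gene-end peak need not lie at a start site. Each spans 250 bases before and 50 bases after a start site in RefSeq (GRCm38.p6, the mm10 assembly), 5′ to 3′ on the gene's strand, with CG dinucleotides in capitals. RefSeq windows matched 6 of the 9 genes (7 windows, since Hoxa10 has 2), with no entry for Hoxb3, Hoxb5 and Pbx3.
Meis1, chr11:19018920-19019219, minus strand: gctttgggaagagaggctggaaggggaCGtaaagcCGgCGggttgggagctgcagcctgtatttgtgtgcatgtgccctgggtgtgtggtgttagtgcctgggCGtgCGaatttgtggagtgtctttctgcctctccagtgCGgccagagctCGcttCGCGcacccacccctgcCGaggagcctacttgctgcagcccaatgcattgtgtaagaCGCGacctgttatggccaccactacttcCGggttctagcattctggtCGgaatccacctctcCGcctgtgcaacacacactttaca
Hoxa5, chr6:52204538-52204837, minus strand: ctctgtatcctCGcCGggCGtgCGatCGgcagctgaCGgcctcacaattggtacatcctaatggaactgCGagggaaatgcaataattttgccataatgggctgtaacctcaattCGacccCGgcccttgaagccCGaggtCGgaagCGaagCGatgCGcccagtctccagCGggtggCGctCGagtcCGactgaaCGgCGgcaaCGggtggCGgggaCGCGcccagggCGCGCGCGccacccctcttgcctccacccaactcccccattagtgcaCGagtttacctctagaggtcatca
Hoxb4, chr11:96318017-96318316, plus strand: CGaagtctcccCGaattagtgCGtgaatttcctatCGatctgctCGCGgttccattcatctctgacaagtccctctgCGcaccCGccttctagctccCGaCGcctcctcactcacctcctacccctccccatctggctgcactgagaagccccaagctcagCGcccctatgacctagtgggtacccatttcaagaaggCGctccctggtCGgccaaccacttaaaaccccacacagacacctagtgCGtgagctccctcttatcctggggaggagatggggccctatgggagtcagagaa
Hoxa9, chr6:52227321-52227620, minus strand: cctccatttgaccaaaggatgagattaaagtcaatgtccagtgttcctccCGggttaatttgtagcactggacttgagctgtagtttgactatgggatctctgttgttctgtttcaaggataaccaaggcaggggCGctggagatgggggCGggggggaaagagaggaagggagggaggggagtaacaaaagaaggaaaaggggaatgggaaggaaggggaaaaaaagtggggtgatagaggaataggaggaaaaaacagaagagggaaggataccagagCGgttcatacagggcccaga
The Meis1 gene-end peak with the most counts covers all 300 bases of the Meis1 window, and the Hoxa5 gene-end peak covers 299 of its own. The second Meis1 gene-end peak and both Hoxa10 gene-end peaks lie outside the windows of their genes. The gene-end peak of Hoxb4 starts 28 bases beyond its window. Hoxa9 has no peak with its midpoint within 1 kb of either gene end. The windows hold 15 CG dinucleotides in Meis1, 29 in Hoxa5, 14 in Hoxb4 and 4 in Hoxa9, against a median of 7 over 32851 RefSeq windows. Searched on both strands, the HOX-PBX core TGATTNAT and the MEIS core TGACAG were found in none of the 7 member windows; they occur in 3.22% and 19.2% of all windows. The ETS core CCGGAA, present in 14.9% of all windows, was found in the Meis1 window, 11 bases before the start site, and in 1 of the 2 Hoxa10 windows. These are matches of letters and say nothing of whether a factor binds.

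The confined libraries were shallow and differed among themselves. Confined libraries 1 to 3 held 340922, 221390 and 128257 counts in peaks, and unconfined libraries 1 to 3 held 304898, 1229478 and 983863. Levels below are CPM, the count in a peak divided by all counts in peaks of that library and multiplied by 1000000. A count of 0 allows up to 3 counts, which equal 8.80, 13.6 and 23.4 CPM in the confined and 9.84, 2.44 and 3.05 CPM in the unconfined libraries. Across all peaks, the correlation of log2(CPM + 1) with the mean of the unconfined libraries (for an unconfined library, the mean of the others) was r = 0.54, 0.039 and -0.018 in confined libraries 1 to 3, against 0.72, 0.82 and 0.83 in unconfined libraries 1 to 3. Confined libraries 2 and 3 thus held little of the peak pattern of the unconfined cells, and each result is given per library so that it can be read with and without them. The peaks of 8 LT-HSC marker genes stood at 0.92 to 1.05 times the mean peak of their library in confined and 0.78 to 0.88 times in unconfined cells. Within that list edgeR called the distal sums of Kit and Mecom higher in confined cells (log2 fold changes 0.80 and 0.77). It called 1 distal Gata2 peak lower (-1.34). These were 2 of 9 sums and 1 of 5 peaks tested, against 13.7% of all sums called higher and 2.42% of all peaks called lower. DESeq2 called Mecom (adjusted p = 0.0289) but not Kit (adjusted p = 0.0646), and gave no adjusted p for the Gata2 peak. Peaks of stromal and endothelial marker genes (4 of 5 genes had a peak) stood at 0.82 to 1.35 times in confined and 0.52 to 0.73 times in unconfined cells, and their distal sums at Cdh5 and Col1a2 were called higher by edgeR in confined cells (log2 fold changes 1.23 and 1.16), where 13.7% of all sums were called higher; DESeq2 did not call Col1a2 (adjusted p = 0.0550). Peaks of B cell markers stood at 0.69 to 0.95 times in confined and 0.54 to 0.67 times in unconfined cells. Ranges of the erythroid, myeloid, T and NK cell and megakaryocyte markers overlapped between the groups. No peak was linked to Cd3e, Cd3g, Cd8a, Gzma, Elane or Lepr. The part of these differences in the results below was not tested.

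No single peak of the 9 loci was called between confined and unconfined cells, and 1 sum over peaks was called, the distal peaks of Pbx3, which were higher in confined cells. This was 1 of 7 sums tested, near the 13.7% of all sums called higher. The call was lost with DESeq2 and with the experimental batch as a replicate block. The strongest peak of all 31, inside Meis1, was lower in every confined library than in any unconfined one. At the HOX genes, 1 of 2 Hoxa9 peaks and the Hoxb4 peak were lower and the Hoxb5 peak was higher in the same sense. A distal Pbx3 peak was higher too. None of these peaks passed the threshold. Of the 31 peaks 9.68% were separated downwards in this way and 6.45% upwards, against 13.2% and 16.8% of all 42632 peaks. The Meis1 peak was picked by summed counts, most from the unconfined libraries, a choice that favours a lower value in confined ones. As a group the 8 gene-end peaks of the 9 loci differed by 3.995 CPM (confined minus unconfined), less than the SD between confined libraries, but with a gene-end limit of 2 kb, which takes in 11 peaks, the difference was -35.7 CPM.

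Meis1 lies at chr11:18880428-19019651 on the minus strand, and its 15 peaks spread over the gene and both flanks. The peak with the most counts, at chr11:18969762-18970461, lies inside the gene, 48858 bp downstream of the start site shown above. It had 61.6, 36.1 and 31.2 CPM in confined libraries 1 to 3 and 108, 71.6 and 91.5 CPM in unconfined libraries 1 to 3. The groups did not overlap, and the peak was lower in the confined library of every batch. By mean CPM it ranked at the 97.5th percentile of all 42632 peaks in confined cells and at the 98.1st in unconfined cells. The confined counts behind it were 21, 8 and 4, against 33, 88 and 90 in unconfined cells. Picking a peak by its summed counts thus favoured one that is high in unconfined cells, so its separation is a description. In the fit over tested peaks its log2 fold change was -0.21 ± 0.32 (SE; edgeR quasi-likelihood test, Benjamini-Hochberg adjusted p = 0.735), and in the fit over all 42632 peaks it was -1.16 ± 0.51 (adjusted p = 0.143). With loess offsets over the tested peaks the sign turned (0.32, edgeR, adjusted p = 0.602). The first fit set its scaling factors on the 9084 peaks it tested and the second on all peaks. With total counts as the only scaling, the median log2 fold change of those 9084 peaks was -0.68, against -0.02 as scaled, so that fit gives changes relative to the other tested peaks.

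The other strong distal peak of Meis1, at chr11:18924709-18925408 inside the gene, had 52.8, 22.6 and 31.2 CPM in confined and 55.8, 51.2 and 69.1 CPM in unconfined cells. Confined library 1 fell within the unconfined range, and libraries 2 and 3 lay below it. The log2 fold change was 0.04 ± 0.33 over tested peaks (edgeR, adjusted p = 0.958) and -0.85 over all peaks (adjusted p = 0.262). Together these 2 peaks, picked out after their values were seen as those with the most counts, held 37.1%, 16.5% and 21.6% of the counts of the 13 distal Meis1 peaks in confined libraries and 53.2%, 40.5% and 50.3% in unconfined libraries. Most counts by which they were picked came from the unconfined libraries, a choice that favours a lower share in confined ones, so the shares are a description and support no difference. The other 11 distal peaks summed to 194, 298 and 226 CPM in confined and 144, 181 and 159 CPM in unconfined cells. The sum over all 13, which involves no such choice, was 308, 357 and 289 CPM in confined and 308, 303 and 319 CPM in unconfined cells. Its log2 fold change was 0.20 with a 95% interval (from the SE) of -0.16 to 0.55 (edgeR, adjusted p = 0.399).

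**Figure D1:**
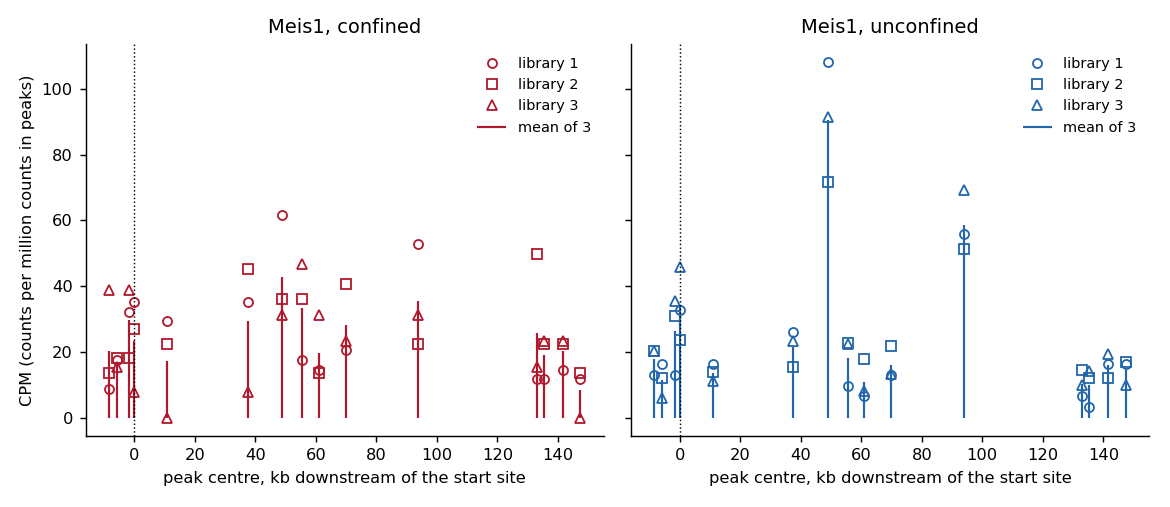
CPM of the 15 Meis1 peaks against their distance from the start site, with confined libraries in the left panel and unconfined ones in the right panel (symbols for libraries, lines for the mean of 3). The peak 48858 bp downstream of the start site stands at 31.2 to 61.6 CPM in confined and 71.6 to 108 CPM in unconfined libraries.

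The Meis1 promoter peak, at chr11:19018542-19019241, with its midpoint 78 bp from the start site, had 35.2, 27.1 and 7.80 CPM in confined and 32.8, 23.6 and 45.7 CPM in unconfined cells. The groups overlapped, and the confined value of library 3 rests on 1 count. The log2 fold change was 0.34 ± 0.44 over tested peaks (edgeR, adjusted p = 0.670), but the sign turned in the fit over all peaks (-0.55, adjusted p = 0.491) and with total counts as scaling (-0.31). The second gene-end peak of Meis1, at chr11:19020235-19020934, lies upstream of the start site and had 32.3, 18.1 and 39.0 CPM in confined and 13.1, 30.9 and 35.6 CPM in unconfined cells. The sum of both had a log2 fold change of -0.04 ± 0.34 (edgeR, adjusted p = 0.936), with an interval of -0.71 to 0.63. One further distal peak, at chr11:18963029-18963728, was called higher by edgeR when confined library 1 was left out (log2 fold change 1.77, adjusted p = 0.0240). The call rests on 8 and 6 counts in confined libraries 2 and 3. In that setting it was 1 of 7 member peaks tested, where 16.0% of all tested peaks were called higher. With confined library 1 alone the log2 fold change of this peak was -0.44. With all libraries it did not pass the filter on low counts.

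Pbx3, whose product is a DNA-binding partner of HOX proteins, lies at chr2:34171457-34372045. Its 4 distal peaks together had 76.3, 122 and 39.0 CPM in confined and 59.0, 55.3 and 35.6 CPM in unconfined cells, from 26, 27 and 5 counts and 18, 68 and 35 counts. The groups overlapped, with confined library 3 among the unconfined values, but within each batch the confined library was the higher one, by 0.36, 1.13 and 0.13 on the log2(CPM + 1) scale. The sum rose in the confined cells, with a log2 fold change of 0.92 ± 0.35 (edgeR on counts summed per gene and peak class, adjusted p = 0.0481). Over all 10778 tested sums the median was -0.02, and -0.16 when libraries were scaled by total counts alone. Of 11 member sums 7 passed the filter on low counts, and this was the 1 called higher. By edgeR 0 were called lower and 0 were lower at an unadjusted p under 0.05, where 2369 of all 10778 sums were, and DESeq2 called 0. Over all genes 13.7% of 10778 sums were called higher and 14.5% lower, so 1 call among 7 is near the background. The call was lost with the experimental batch as a replicate block (log2 fold change 0.82, adjusted p = 0.101), with DESeq2 (0.90, adjusted p = 0.107), with total counts as the only scaling (0.77, adjusted p = 0.0956) and without the filter (0.77, adjusted p = 0.133). It was also lost when confined library 2 was left out (0.48, adjusted p = 0.415), when unconfined library 1, 2 or 3 was left out (0.95, 1.05 and 0.64, with adjusted p = 0.0924, 0.0612 and 0.294), and with confined library 1 standing alone for the confined group (0.65, adjusted p = 0.442).

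Confined library 2 carried the largest part of the Pbx3 sum through 1 peak, at chr2:34139706-34140405, which lies 31402 bp outside the gene. This peak had 17.6, 54.2 and 7.80 CPM in confined and 29.5, 8.95 and 8.13 CPM in unconfined cells, and only the value of confined library 2 lay above the unconfined range. The distal Pbx3 peak with the most counts, at chr2:34359932-34360631 inside the gene, had 26.4, 22.6 and 15.6 CPM in confined and 3.28, 15.5 and 14.2 CPM in unconfined cells. Here the groups did not overlap, narrowly, and the log2 fold change over all peaks was 0.61 ± 0.55 (edgeR, adjusted p = 0.527). The gene-end peak of Pbx3, at chr2:34372342-34373041, had 32.3, 13.6 and 31.2 CPM in confined and 59.0, 25.2 and 24.4 CPM in unconfined cells. The groups overlapped, and its log2 fold change was 0.40 ± 0.49 over tested peaks (edgeR, adjusted p = 0.654). The sign turned in the fit over all peaks (-0.47, adjusted p = 0.574), with total counts as scaling (-0.22) and in the fit of sums, where this peak is the whole Pbx3 gene-end sum (-0.11, adjusted p = 0.864).

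**Figure D2:**
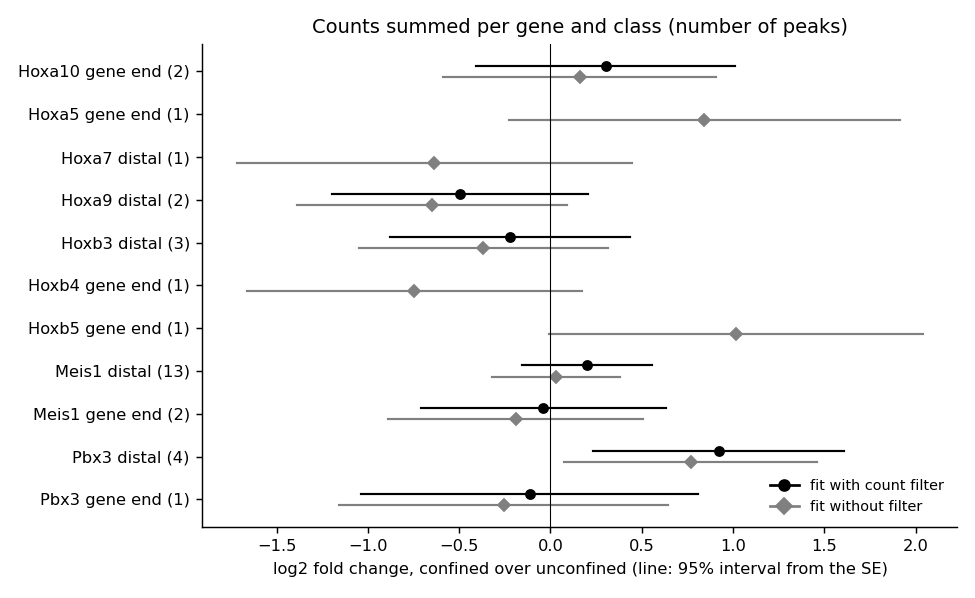
Log2 fold change (confined over unconfined, n = 3 each) of counts summed per gene and peak class, with the number of peaks in brackets and 95% intervals from the SE as lines, for the fit with the filter on low counts (black circles) and without it (grey diamonds). With the filter, only the interval of the distal Pbx3 sum, centred at 0.92, leaves out 0.

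The A cluster genes lie side by side on chromosome 6, from Hoxa5 at chr6:52201754-52204587 over Hoxa7 at chr6:52215623-52218573 and Hoxa9 at chr6:52223097-52227370 to Hoxa10 at chr6:52231197-52240854. Hoxa9, which promotes expansion of stem and progenitor cells, was the gene with the clearest separation between groups in this cluster. Its peak at chr6:52221519-52222218, beyond the downstream end of the gene, had 17.6, 22.6 and 15.6 CPM in confined and 42.6, 25.2 and 35.6 CPM in unconfined cells. The groups did not overlap, on confined counts of 6, 5 and 2. Over all peaks the log2 fold change was -0.98 ± 0.48 (edgeR, unadjusted p = 0.0427, adjusted p = 0.201). The other Hoxa9 peak, at chr6:52225946-52226645 inside the gene, had 26.4, 18.1 and 7.80 CPM in confined and 19.7, 30.1 and 28.5 CPM in unconfined cells. Their sum was 44.0, 40.7 and 23.4 CPM in confined and 62.3, 55.3 and 64.0 CPM in unconfined cells. It was lower in the confined library of every batch, with differences of -0.49, -0.43 and -1.42 on the log2(CPM + 1) scale, but the log2 fold change of -0.50 ± 0.36 did not pass the threshold (edgeR, adjusted p = 0.281; interval -1.20 to 0.20).

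Hoxa7 had 1 peak, at chr6:52217159-52217858 inside the gene, with 35.2 CPM in confined library 1, 0 in confined libraries 2 and 3, and 29.5, 23.6 and 27.4 CPM in unconfined libraries 1 to 3. A count of 0 allows up to 13.6 CPM in confined library 2 and 23.4 CPM in confined library 3, both below the lowest unconfined value, while confined library 1 lay above all unconfined values. Over all peaks its log2 fold change was -0.83 ± 0.50 (edgeR, adjusted p = 0.314). Hoxa5, whose promoter lies in its gene-end peak at chr6:52204137-52204836, had 20.5, 22.6 and 31.2 CPM in confined and 23.0, 10.6 and 11.2 CPM in unconfined cells. Unconfined library 1 lay within the confined range; the log2 fold change over all peaks was 0.65 ± 0.55 (edgeR, adjusted p = 0.498). Hoxa10, which acts in myeloid and megakaryocyte progenitors, had 23.5, 22.6 and 15.6 CPM in confined and 16.4, 19.5 and 21.3 CPM in unconfined cells at its peak at chr6:52230428-52231127. The sum of both Hoxa10 gene-end peaks had a log2 fold change of 0.30 ± 0.36 (edgeR, adjusted p = 0.528), with an interval of -0.41 to 1.01.

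The B cluster genes lie on chromosome 11, with Hoxb5 at chr11:96303512-96306121 and Hoxb4 at chr11:96318267-96321638. RefSeq draws Hoxb3 over chr11:96307101-96347930, which includes Hoxb4, so a peak between them can belong to either gene. The Hoxb4 gene-end peak, at chr11:96318345-96319044, had 14.7, 18.1 and 23.4 CPM in confined and 26.2, 27.7 and 32.5 CPM in unconfined cells. The groups did not overlap and every batch had the lower value in its confined library, on confined counts of 5, 4 and 3. Over all peaks the log2 fold change was -0.94 ± 0.49 (edgeR, adjusted p = 0.234). Hoxb5 showed the opposite order. Its gene-end peak at chr11:96302927-96303626 had 29.3, 22.6 and 39.0 CPM in confined and 0, 20.3 and 13.2 CPM in unconfined cells, where the count of 0 allows up to 9.84 CPM. The groups did not overlap, on confined counts of 10, 5 and 5, and the log2 fold change over all peaks was 0.83 ± 0.50 (edgeR, adjusted p = 0.313).

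The Hoxb3 peak with the most counts, at chr11:96311620-96312319, had 29.3, 13.6 and 31.2 CPM in confined and 45.9, 33.4 and 20.3 CPM in unconfined cells. The groups overlapped, and the log2 fold change over tested peaks was 0.33 ± 0.49 (edgeR, adjusted p = 0.724). The sign turned in the fit over all peaks (-0.51, adjusted p = 0.533) and with total counts as scaling (-0.30). The sum of the 3 Hoxb3 peaks was 52.8, 45.2 and 70.2 CPM in confined and 62.3, 81.3 and 61.0 CPM in unconfined cells, with a log2 fold change of -0.22 ± 0.34 (edgeR, adjusted p = 0.621). Its interval ran from -0.88 to 0.44.

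**Figure D3:**
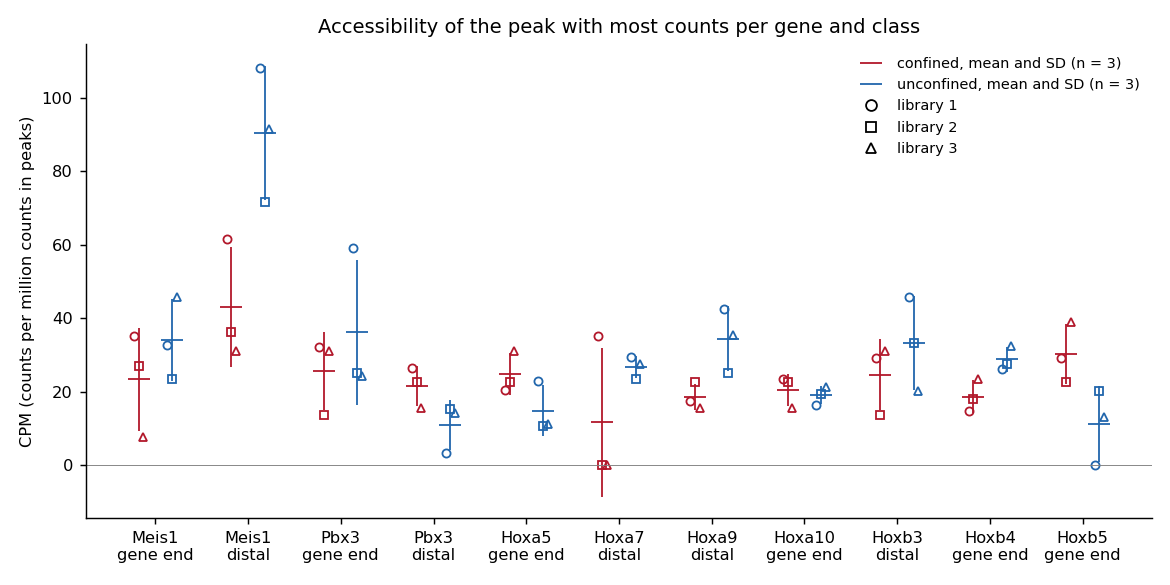
CPM of the gene-end and distal peaks with the most counts at each of the 9 genes, per confined (red, left) and unconfined (blue, right) library, with group mean and SD (n = 3). Groups do not overlap at the Meis1 distal, Pbx3 distal, Hoxa9, Hoxb4 and Hoxb5 peaks.

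Counted over all 31 peaks, 3 had every confined library below every unconfined one (Meis1, Hoxa9 and Hoxb4) and 2 had every confined library above (Hoxb5 and Pbx3). Over all 42632 peaks 13.2% were separated downwards and 16.8% upwards, and at the 9 loci 9.68% and 6.45%. The background differs by class. Among gene-end peaks 1 of 8 at the loci was separated downwards and 1 of 8 upwards (12.5% each), against 31.5% and 6.27% of all gene-end peaks. Among distal peaks 2 of 23 were separated downwards and 1 of 23 upwards (8.70% and 4.35%), against 7.04% and 20.6% of all distal peaks. With 1 or 2 peaks in each of these shares, nothing is read from them. The filter on low counts kept 6 of the 31 peaks: 4 of Meis1, 1 of Hoxb3 and 1 of Pbx3. None was called, none had an unadjusted p under 0.05 and DESeq2 called none. Of all 9084 tested peaks edgeR called 5.79% higher and 2.42% lower, and 1205 were higher and 1073 lower at an unadjusted p under 0.05. In the fit over all 42632 peaks, which called 1.47% higher and 4.27% lower, again none of the 31 was called. At an unadjusted edgeR p under 0.05 that fit had 5709 of all 42632 peaks lower and 4062 higher. Of the 31 peaks 2 had such a p, both lower in confined cells. They were the strongest Meis1 peak (adjusted p = 0.143) and the outer Hoxa9 peak (adjusted p = 0.201). In that fit 15 peaks had a log2 fold change below 0 and 16 above, over a range of -1.16 to 1.00 and with a median of 0.02, against 0.12 over all peaks. The 11 HOX peaks, which are of both classes, were below 0 in 8 cases, with a median of -0.51. Among the 13 distal Meis1 peaks, 9 were above 0. In the same fit the median was -0.59 over all gene-end peaks and 0.30 over all distal peaks. The distal HOX peaks all lay below 0 (-0.98 to -0.22), and the gene-end HOX peaks lay on both sides of it (-0.94 to 0.83). The distal Meis1 peaks had a median of 0.35. Whether these peaks differ from their classes was not tested.

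The gene-end peaks of the 9 loci stood near the mean peak in both groups, whereas gene-end peaks in general stood lower in confined than in unconfined cells. Relative to the mean peak of its library, a gene-end peak of the 9 loci stood at 1.02 ± 0.15 in confined and 0.995 ± 0.0405 in unconfined cells (SD, n = 3 each). All 11094 linked gene-end peaks stood at 0.993 ± 0.154 in confined and 1.55 ± 0.0855 in unconfined cells. Distal peaks of the 9 loci stood at 0.928 ± 0.135 in confined and 0.956 ± 0.0141 in unconfined cells, against 1.01 ± 0.0487 in confined and 0.818 ± 0.0301 in unconfined cells for all 27241 linked distal peaks. With a gene-end limit of 2 kb the summed level of the loci was lower in confined cells (-35.7 CPM). The difference between the loci and their class was not tested, since the genes were chosen with earlier results of these data known. In CPM, the 8 gene-end peaks summed to 211, 158 and 203 in confined and 187, 179 and 194 in unconfined libraries, and the 23 distal peaks to 516, 565 and 421 in confined and 522, 519 and 507 in unconfined libraries. Both pairs of groups overlapped.

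**Figure D4:**
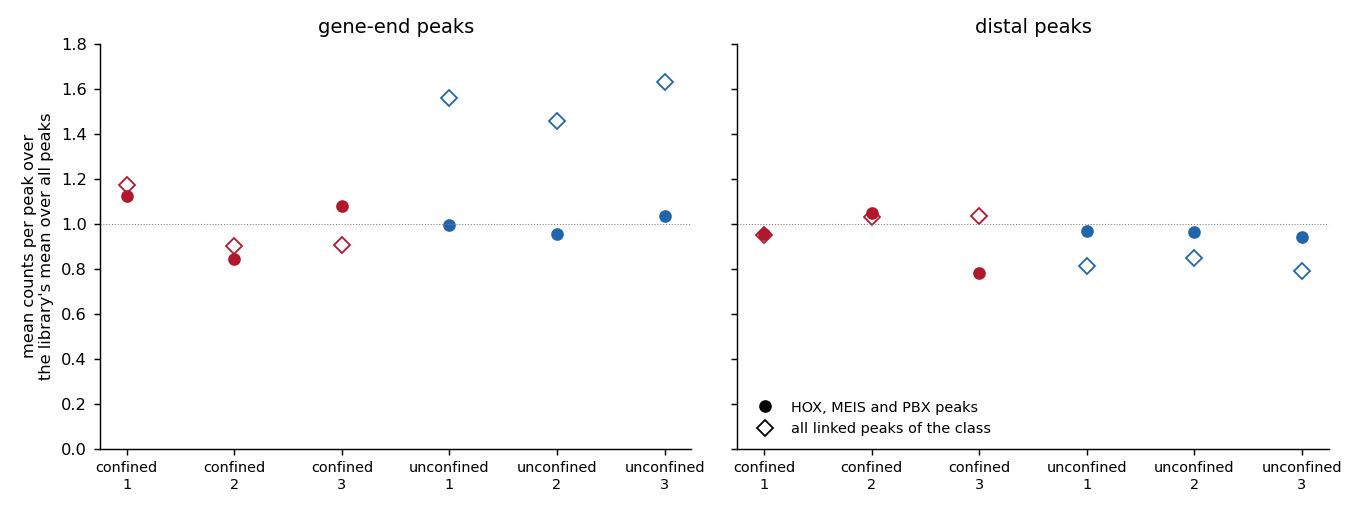
Mean counts per peak over the mean of all peaks in the same library, for peaks of the 9 loci (filled) and all linked peaks of the class (open), with confined libraries to the left of unconfined ones. Gene-end peaks of the class stand at 0.993 ± 0.154 in confined and 1.55 ± 0.0855 in unconfined libraries (SD, n = 3 each), while those of the 9 loci lie near 1 in both.

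The order of the genes differed between the groups. By mean CPM per peak, confined cells had Hoxb5 highest (30.3 ± 8.24), followed by Hoxa5 (24.8 ± 5.66), Meis1 (24.7 ± 2.24), Pbx3 (21.0 ± 6.57), Hoxa10 (19.0 ± 4.03), Hoxb4 (18.7 ± 4.40), Hoxb3 (18.7 ± 4.27), Hoxa9 (18.0 ± 5.53) and Hoxa7 (11.7 ± 20.3; SD, n = 3). No neighbours in that order were further apart than the SDs of both. In unconfined cells Hoxa9 (30.3 ± 2.31) came first, then Hoxb4 (28.8 ± 3.30), Hoxa7 (26.9 ± 3.01), Meis1 (24.7 ± 1.71), Hoxb3 (22.7 ± 3.80), Hoxa10 (17.5 ± 2.48), Pbx3 (17.2 ± 5.89), Hoxa5 (14.9 ± 6.98) and Hoxb5 (11.2 ± 10.3). Of these neighbours only Hoxb3 and Hoxa10 were further apart than the SDs of both. In each library, the highest of the 31 peaks there, a Meis1 peak except in confined library 2, where it was a Pbx3 peak, stood at 3.00, 2.40 and 3.00 times the median of the 31 in confined and 6.60, 3.52 and 4.74 times in unconfined libraries.

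Other genes of the network were read from lists drawn up with earlier results known. Among all 9084 tested peaks, 1205 were higher and 1073 lower at an unadjusted edgeR p under 0.05. Of 32 other HOX genes 10 had a peak, and of 2 peaks tested edgeR and DESeq2 called none (1 had an unadjusted edgeR p under 0.05). Among 4 sums tested, the distal sum of Hoxb1 was called higher (log2 fold change 1.06 ± 0.40, edgeR adjusted p = 0.0443, DESeq2 adjusted p = 0.0655), where 13.7% of all 10778 sums were. Of 9 other TALE cofactors 7 had a peak, and edgeR and DESeq2 called none of 6 tested peaks (1 had an unadjusted edgeR p under 0.05). Of 16 activators of HOX loci 15 had a peak, and edgeR and DESeq2 called none of 14 tested peaks (4 had an unadjusted edgeR p under 0.05). Among their 16 sums tested, the gene-end sum of Dot1l, a histone H3 lysine methyltransferase, was lower (-2.11 ± 0.54, adjusted p = 0.00814), as were the distal sums of its partner Mllt10 (-1.13 ± 0.43, adjusted p = 0.0472) and of Wdr5 (-1.01 ± 0.36, adjusted p = 0.0358) in edgeR. DESeq2 gave adjusted p = 0.0887 for Mllt10 and 0.0842 for Wdr5, and no adjusted p for Dot1l. By edgeR 3 of these 16 were thus called lower and 1 higher, against 14.5% lower and 13.7% higher over all 10778 sums, which is near the background. The distal sum of Aff1, a subunit of an elongation complex, was the 1 called higher (1.10 ± 0.23, edgeR adjusted p = 0.00270; DESeq2 adjusted p = 0.00554). The median log2 fold change was 0.40 for the sums of the other HOX genes, -0.66 for those of the TALE cofactors and -0.54 for those of the activators.

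As a description over the 6 libraries, the gene-end sums most like that of Meis1 in log2(CPM + 1) were those of Mpnd (Pearson r = 0.952), Dnajb5 (0.949) and Ciart (0.940), among 4828 compared. The distal sums most like that of Meis1 were those of Ppfibp1 (0.990), Ercc6l2 (0.977) and Eln (0.976), among 5948.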

How the data were processed

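The authors deposited raw counts per peak for all 6 libraries in 1 table, with peak coordinates in another. The submitters' processing notes name featureCounts, SAMtools 1.14, R 4.2.0 and the mm10 build. Not given in the sources used here are the aligner, the peak caller, the handling of duplicates, any shift for the transposase and the libraries on which peaks were called. Sites open in confined cells alone could be missing if the deeper unconfined libraries dominated that step.

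Peaks were linked to RefSeq genes (GRCm38.p6) by distance to the gene body, and ties inside overlapping genes went to the nearest gene end. Counts per peak, and counts summed per gene and class, entered edgeR's quasi-likelihood test (version 4.0.16, R 4.3.3) after filterByExpr, with TMM factors over the features tested, no term but the group, and p-values adjusted by Benjamini-Hochberg over every feature tested (threshold 0.05). The peak filter asks for about 31.0 CPM in 3 libraries, so a peak can pass through the group where it is high. SEs are the log2 fold change divided by the square root of F. The fit was tested on simulated data. Alternatives were DESeq2 1.42.0, other scalings (loess offsets used limma 3.58.1), other filters, a replicate block, each library left out, and confined library 1 alone. Shares carry exact binomial intervals at 95% from SciPy 1.17.1 in Python 3.11.15; intervals and the limits of a count of 0 cover counting error only. No alternative was added to those planned, but the plan was made with earlier results of these data known.

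Named peaks are, for each gene, the gene-end and the distal peak with the most counts, plus every called member peak; others are named in the text where they were singled out after their values were seen. The genes, lists and tests were chosen with earlier results of these data known. The result of 1 gene among the TALE cofactors is not reported here.

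The libraries are paired by the labels' experimental batch. Over 9084 tested peaks, deviations from group means correlated at r = -0.0012, 0.012 and -0.064 within batches 1 to 3 and at -0.132 to 0.133 between libraries of different batches, so the pairing was not visible in the counts.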

Additional observations from a re-analysis of the deposited data

How the results depend on the processing

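No member peak was called under any alternative except that 1 was called higher without confined library 1, where 16.0% of all tested peaks were. Leaving out each library gave 0 to 1. Member sums called higher numbered 1 with all libraries, 0 with total counts, no filter, DESeq2, the replicate block or confined library 1 alone, and 0 to 1 when each library was left out; the block changed no other call. None was called lower. The median log2 fold change of the tested gene-end members was 0.40; it was -0.22 with total counts, -0.15 without the filter, 0.088 where peaks averaged 10 counts or more, -0.032 with confined library 1 alone and 0.080 to 0.45 with each library left out. That of the tested distal members was 0.04; it was -0.62 with total counts, -0.16 where peaks averaged 10 counts or more, -0.15 with confined library 1 alone and -0.25 to 0.12 with each library left out. With a gene-end limit of 2 kb the confined minus unconfined difference in gene-end CPM was -35.7, against 3.995 at 1 kb. Signs turned in 28 of 79 peak values and 12 of 88 sum values, none of them called. With total counts the log2 fold changes were -0.62 (Meis1 peak starting at 18924709), -0.31 (Meis1 promoter peak), -0.047 (second Meis1 gene-end peak), -0.30 (Hoxb3) and -0.22 (Pbx3 gene-end); without the filter they were -0.85, -0.55, -0.23, -0.51 and -0.47, and with confined library 1 alone -0.38, -0.16, -0.10, -0.25 and -0.12, in the same order. Where peaks averaged 10 counts or more the first was -0.30. With loess offsets the strongest Meis1 peak had 0.32, the distal Meis1 sum -0.17, the gene-end Meis1 sum 0.049 and the gene-end Pbx3 sum 0.14. With confined library 1 alone those 3 sums had -0.021, 0.085 and 0.084, and with the replicate block the gene-end Meis1 sum had 0.033. Over the libraries left out singly, where the filter kept the result (all 6 cases, but 5 for the second Meis1 gene-end peak and for Hoxb3, and 3 for the gene-end Pbx3 sum), values ran from -0.48 to -0.029 (Meis1 peak starting at 18924709), -0.16 to 0.40 (promoter peak), -0.043 to 0.66 (second gene-end peak), -0.17 to 0.29 (Hoxb3), -0.29 to 0.19 (gene-end Meis1 sum) and -0.20 to 0.15 (gene-end Pbx3 sum). Beyond the scaling and filters, which by construction set the zero of the fold changes, the cause was not tested. Confined values of named peaks rest on 0 to 21 counts.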
